A study of Mus musculus with 6 samples.

Results

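Complement C1q and the genes by which tissue macrophages are recognised were examined in knee cartilage of WT and miR-455 null mice. The 10 genes comprised the 3 C1q chains (C1qa, C1qb and C1qc) and 7 macrophage genes (Mrc1, Cd163, Adgre1, Csf1r, Cd68, Cd14 and Aif1). They were selected by symbol and function from the 36711 gene identifiers in the files, and all 10 were among the 12804 genes tested. RNA was sequenced from cartilage dissected from the tibia and femur of 3-month-old C57/Bl6 mice, with 3 WT and 3 miR-455 null libraries. The cartilage of 2 knees was pooled for each library. In the null mice a small CRISPR-Cas9 deletion removes part of both mature forms of miR-455, and it is present in every tissue of the animal, not only in chondrocytes; the edited line was crossed onto C57/BL6. The labels do not say whether the WT and null mice were littermates, and each p-value reflects the spread among the 6 libraries alone.

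C1q is the recognition molecule of the classical complement pathway. Its A, B and C chains assemble into a bouquet-shaped protein that binds antibody complexes and dying cells, and it activates the proteases C1r and C1s, which cleave C4 and C2. Unlike most complement proteins, which the liver makes, C1q is made mainly by macrophages and related myeloid cells. Macrophages of the knee lie in the synovium and in the marrow under the joint surface, where some of them surround maturing red cells, whereas healthy articular cartilage itself has neither vessels nor a macrophage population.

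The C1q chains are neighbours on mouse chromosome 4 (build mm10), all on the minus strand and all protein coding. C1qb lies at chr4:136880129-136886187, C1qc at chr4:136889804-136893065 and C1qa at chr4:136895917-136898803, so that the whole cluster covers 18675 bases. The promoters of C1qb and C1qc, the chains with a matched promoter, are shown so that the neighbouring starts can be compared. They span 250 bases before to 50 bases after the RefSeq start of each gene (GRCm38.p6, minus strand, 5′ to 3′), at chr4:136886151-136886450 and chr4:136892865-136893164. Capitals mark GAGGAA, searched on both strands, a longer form of the GGAA core bound by ETS factors such as PU.1. Other matches to GGAA in these promoters are not marked.
C1qb: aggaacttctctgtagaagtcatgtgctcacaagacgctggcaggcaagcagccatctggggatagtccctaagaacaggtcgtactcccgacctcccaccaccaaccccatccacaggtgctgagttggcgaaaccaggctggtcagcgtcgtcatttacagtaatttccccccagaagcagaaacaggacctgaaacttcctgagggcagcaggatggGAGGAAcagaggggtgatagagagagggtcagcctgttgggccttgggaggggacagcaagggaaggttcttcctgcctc
C1qc: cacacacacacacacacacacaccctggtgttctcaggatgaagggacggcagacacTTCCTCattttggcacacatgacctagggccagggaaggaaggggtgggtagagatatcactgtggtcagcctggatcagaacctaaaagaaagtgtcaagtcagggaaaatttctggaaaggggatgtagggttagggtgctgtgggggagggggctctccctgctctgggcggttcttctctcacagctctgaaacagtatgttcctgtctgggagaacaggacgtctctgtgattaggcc
GAGGAA started at position -30 in the C1qb promoter, counted from the RefSeq start. In that of C1qc the match was on the opposite strand, at position -193. The RefSeq start of C1qc lies inside the gene span given above, so the difference in position depends on the annotation used. RefSeq promoters were matched for 6 of the 10 genes. Of these 6, 5 (C1qb, C1qc, Mrc1, Cd68 and Aif1) held GAGGAA on either strand, compared with 28.3% of 27025 promoters of the same length. These are matches of letters and not measured binding sites.

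The mature forms of the deleted microRNA are shown with the seed, bases 2 to 8, in capitals. They come from RefSeq (GRCm38.p6, plus strand) at chr4:63256867-63256888 and chr4:63256904-63256924.
mmu-miR-455-5p: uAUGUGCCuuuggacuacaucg
mmu-miR-455-3p: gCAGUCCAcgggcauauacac
A 7-base match to either seed (GGCACAT for the 5p form, TGGACTG for the 3p form) was present in the longest annotated 3′UTR of 0 of the 10 genes. Among 11873 tested genes with an annotated 3′UTR, 8.84% held the first and 13.4% the second. The 3′UTRs of the 10 genes were between 118 and 1669 bases long, and longer 3′UTRs have more room for a match.

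The deposited values were normalised abundances per gene, which behave as length-normalised values, so that levels can be set beside each other between genes. Their total was between 917819 and 1135956 per library, and the number of reads behind each value is unknown. Although the labels give the cell type as chondrocyte, transcripts of marrow and blood were abundant: 9 erythroid genes summed to between 112639 and 306071 in every library. Of the cartilage genes, Prg4 was the most abundant at 166 to 547, Comp was between 35.6 and 64.3 and Col2a1 between 18.4 and 63.8. Sox9, the transcription factor of the chondrocyte lineage, did not exceed 1.32 and is named outside the rule for named genes. The macrophage transcripts were thus measured in a mixed tissue, in which fewer cells of a type and less RNA per cell cannot be told apart. Mmrn1, the gene of a platelet protein that is named here after its values were seen, was listed at 0 in all 3 WT libraries and at 4.89, 5.002 and 3.92 in null libraries 1 to 3, and was 1 of the 4 genes called by limma (adjusted p = 0.00372). The locus of Mmrn1 is known to be deleted in a substrain of C57BL/6 mice, and the labels name no substrain, so a difference in substrain and the loss of miR-455 cannot be told apart for any gene described here.

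Among the 10 genes, the C1q chains were the most abundant in both genotypes. In WT libraries the mean abundance (± SD, n = 3) was 92.0 ± 3.89 for C1qa, 71.2 ± 7.50 for C1qb and 60.9 ± 1.31 for C1qc, and C1qa lay above 93.4% of all genes tested. Cd68 followed at 43.4 ± 7.44, then Csf1r at 32.6 ± 1.76 and Aif1 at 29.9 ± 2.51, whose WT values overlapped. Adgre1 and Mrc1 overlapped at 15.1 ± 1.16 and 14.5 ± 2.16, as did Cd14 and Cd163 at 6.23 ± 2.15 and 6.04 ± 1.30. All of the 10 genes were thus measured well above the filter of 1, with a lowest single value of 4.89.

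**Figure D1:**
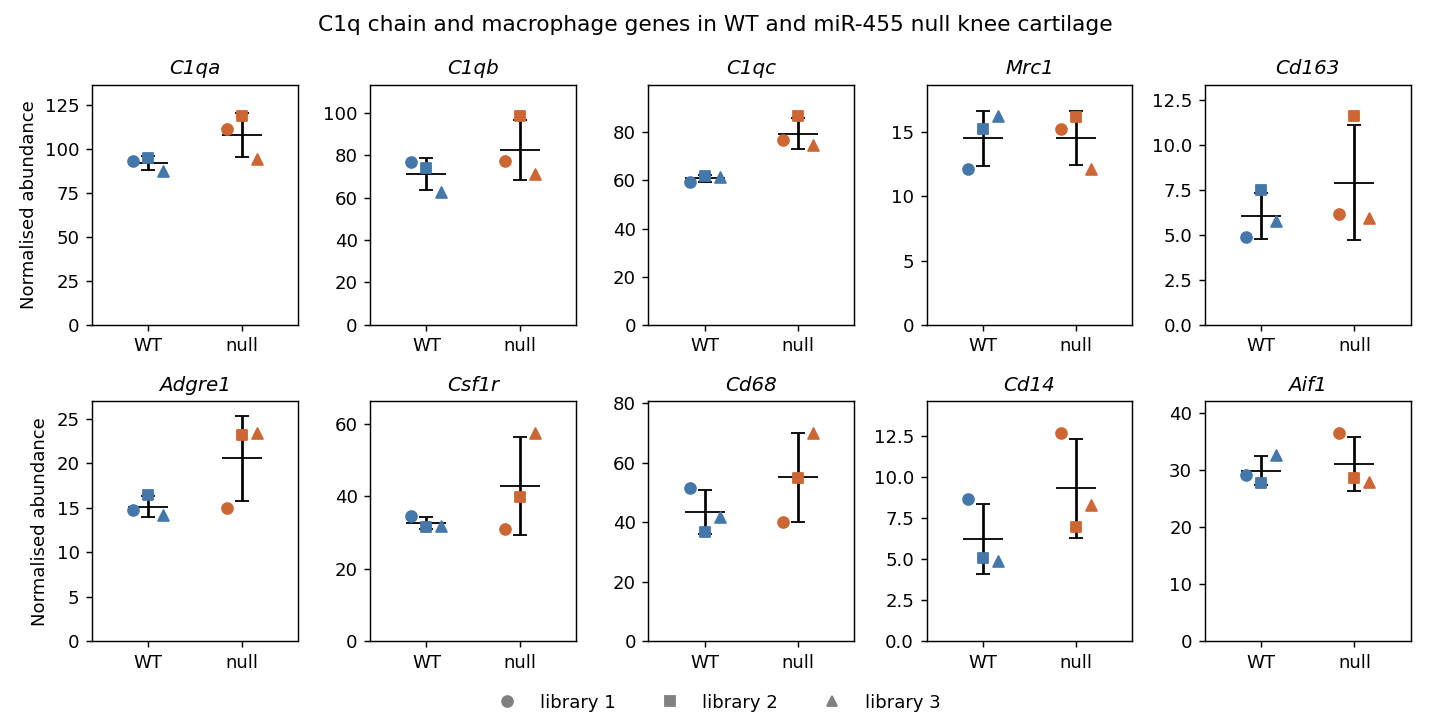
Normalised abundance (y axis, from 0) of the 10 genes in 3 WT (blue) and 3 miR-455 null (orange) libraries, with a marker shape for each library number and bars for the mean ± SD. C1qc is separated between the genotypes, with a highest WT value of 62.0 and a lowest null value of 74.8, while the groups overlap for the other genes.

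The comparison of genotypes asked whether the loss of miR-455 was accompanied by a different level of C1q and macrophage transcripts. C1qc was the clearest difference. It measured 59.4, 62.0 and 61.3 in WT libraries 1 to 3, against 76.8, 86.7 and 74.8 in null libraries 1 to 3, so that every null library lay above every WT library. The difference was 0.38 on the log2(abundance + 0.5) scale (SE 0.11, 95% interval 0.13 to 0.63), a ratio of means of 1.30. It did not pass adjustment over all genes (adjusted p = 0.812 in the limma fit across all genes).

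C1qa gave values of 93.4, 94.99 and 87.6 (WT) and 111, 119 and 94.2 (null). Null libraries 1 and 2 lay above all of the WT libraries, and null 3 lay between WT 1 and WT 2, so the groups overlapped. The log2 difference was 0.23 (SE 0.12, 95% interval -0.07 to 0.52; limma adjusted p = 0.812). C1qb had abundances of 76.9, 74.0 and 62.7 for WT and 77.5, 98.5 and 71.4 for null. Here null 2 was well above the other libraries and null 3 was below 2 of the WT libraries. The log2 difference was 0.20 (SE 0.16, 95% interval -0.17 to 0.57; limma adjusted p = 0.812), and it was 0.07 without null 2 and 0.12 without WT 3.

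The ratio of C1qb to C1qa took values of 0.823, 0.779 and 0.715 (WT) and 0.697, 0.830 and 0.758 (null), and the groups overlapped throughout. The ratio of C1qc to C1qa took values of 0.636, 0.652 and 0.699 (WT) and 0.690, 0.730 and 0.795 (null), which overlapped only through WT 3 and null 1. The ratio of C1qc to C1qb varied most, from 0.773 in WT 1 to 1.05 in null 3, the one library in which C1qc lay above C1qb. C1qc accounted for between 25.9% and 31.1% of the summed C1q abundance, C1qb for between 29.2% and 33.5%, and C1qa for between 39.1% and 41.9%. In the assembled protein the chains occur in equal numbers, whereas the C1qa transcript was the most abundant of the chains in each of the 6 libraries. The summed abundance of the chains took values of 230, 231 and 212 (WT) and 266, 304 and 240.4 (null), a ratio of means of 1.21, given as a description with no test.

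**Figure D2:**
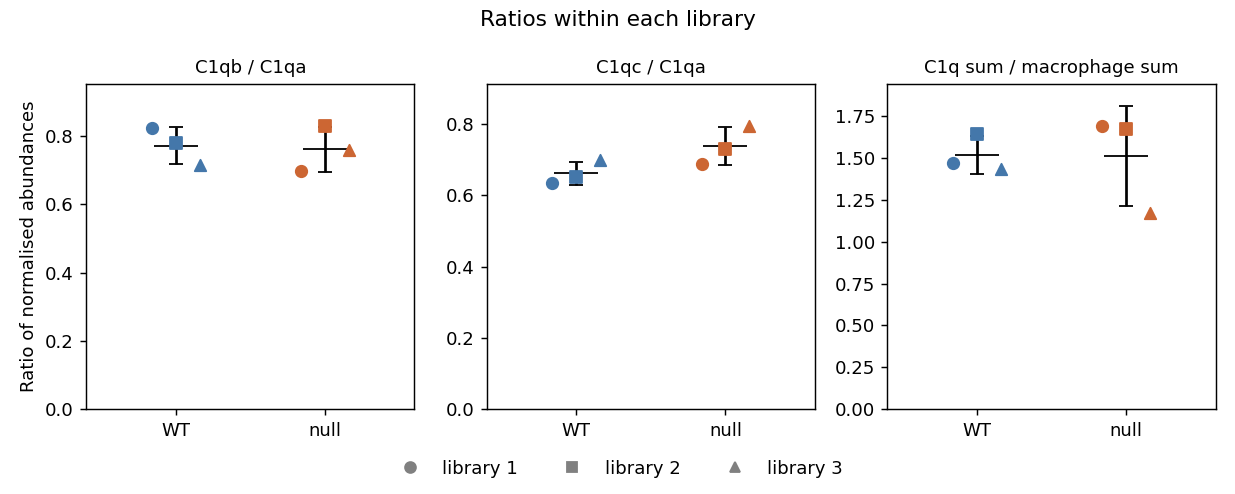
Ratios of normalised abundances within each library (y axis, from 0) for C1qb to C1qa, C1qc to C1qa, and the summed C1q chains to the summed 7 macrophage genes, with bars for the mean ± SD of 3 libraries per genotype. The ratio of C1qb to C1qa ran from 0.697 to 0.830, and the ratio of C1q to the macrophage genes was lowest in null 3, at 1.17.

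Of the receptors by which macrophages sense growth factors and bacterial products, Csf1r, the receptor for CSF1 and IL-34 on which most tissue macrophages depend, measured 34.7, 31.5 and 31.7 in the WT libraries, against 31.1, 39.9 and 57.5 in the null libraries. The WT libraries were close to each other, whereas the null libraries included both the lowest and the highest value of the 6. The log2 difference was 0.34 (SE 0.22, limma adjusted p = 0.812), and it was 0.55 without null 1 and 0.11 without null 3. The exons of Csf1r overlap those of Hmgxb3 on the other strand, and reads of the 2 genes cannot be told apart if the libraries carried no strand information, which the sources used here do not give. Cd14, a co-receptor for lipopolysaccharide, gave values of 8.70, 5.08 and 4.90 (WT) and 12.7, 6.94 and 8.32 (null). Its highest value was in null 1, but WT 1 lay above null 2 and null 3. The log2 difference of 0.55 was the largest of the 10 genes and also the least precise (SE 0.29, 95% interval -0.13 to 1.23; limma adjusted p = 0.812), and it was 0.31 without null 1.

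Adgre1, which encodes the F4/80 antigen of mouse macrophages, had abundances of 14.8, 16.4 and 14.2 for WT and 15.03, 23.2 and 23.5 for null. Null 2 and null 3 were above the WT libraries and null 1 lay among them. The log2 difference was 0.40 (SE 0.19, 95% interval -0.04 to 0.85; limma adjusted p = 0.812), and it was 0.61 without null 1. Cd68, a lysosomal glycoprotein of phagocytes and osteoclasts, measured 51.5, 36.9 and 41.8 in the WT libraries, against 40.2, 54.8 and 70.1 in the null libraries. Its order in the null libraries was the same as that of Csf1r, with null 3 highest and null 1 lowest, and the log2 difference was 0.32 (SE 0.22, limma adjusted p = 0.812). This became 0.52 without null 1, 0.13 without null 3 and 0.21 without WT 2.

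The scavenger receptors gave no such order. Cd163, which takes up haemoglobin bound to haptoglobin, gave values of 4.89, 7.46 and 5.77 (WT) and 6.16, 11.6 and 5.93 (null). Only null 2 lay above the WT libraries (log2 difference 0.32, SE 0.28, limma adjusted p = 0.812), and without null 2 the difference was 0.02. It was 0.19 without WT 1 and 0.48 without null 3. Mrc1, the mannose receptor CD206, had abundances of 12.1, 15.2 and 16.3 for WT and 15.3, 16.2 and 12.2 for null. These ranges coincided, and the log2 difference of 0.00 (SE 0.16, 95% interval -0.39 to 0.39; limma adjusted p = 0.997) became -0.01 with median ratio scaling and -0.12, -0.04 and -0.08 without WT 1, null 1 and null 2. Aif1, which encodes the calcium-binding protein IBA1, measured 29.2, 27.8 and 32.7 in the WT libraries, against 36.6, 28.7 and 28.0 in the null libraries. Its log2 difference was 0.05 (SE 0.14, 95% interval -0.29 to 0.38; limma adjusted p = 0.938), and it was -0.07 without null 1 and -0.003 without WT 2.

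**Figure D3:**
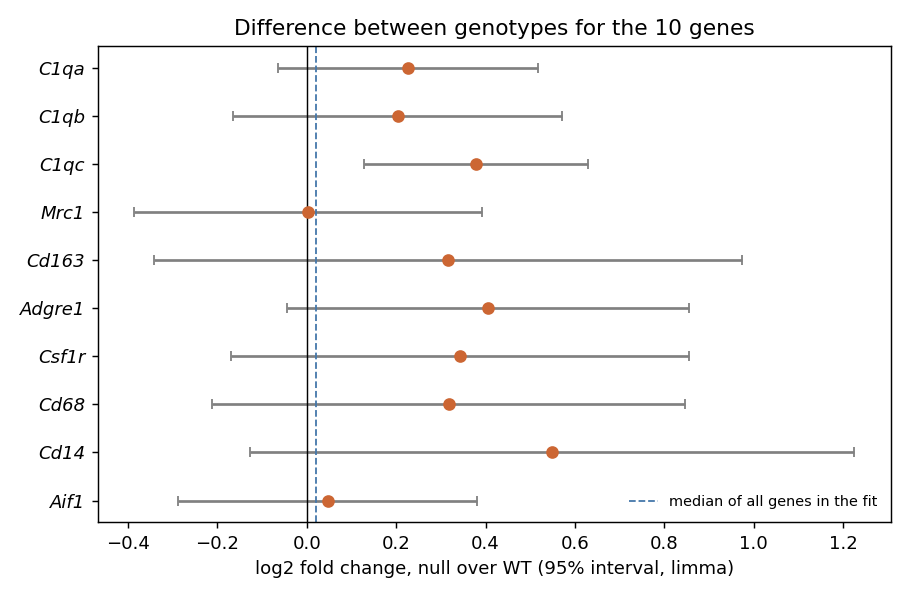
The log2 fold change of null over WT (x axis) for each of the 10 genes (y axis), with the 95% interval from limma and, as a dashed line, the median of all genes tested (0.02). The interval of C1qc, from 0.13 to 0.63, lies above 0, and the other 9 intervals include 0.

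Across the 10 genes, 0 passed limma with adjustment over all genes, where 0.0312% of the 12804 genes did, and 1 (C1qc) had an unadjusted p under 0.05, where 5.57% of all genes did in either direction and 3.25% did with a higher level in null. The groups were separated with null higher for 1 of the 10, compared with 6.25% of all genes. The median log2 difference was 0.32 over the 10 genes (0.23 over the C1q chains and 0.32 over the other 7) and 0.02 over all genes tested. All 10 differences were above 0, although those of Mrc1 and Aif1 changed sign under the alternatives given with them, and 53.9% of all genes were above 0. The intervals of the 9 other genes reach from -0.39 to 1.23, and that of Cd14 includes both no difference and a 2-fold one. Without null 1, 4 of the 10 genes had an unadjusted p under 0.05 (C1qc, Adgre1, Csf1r and Cd68), where 18.8% of all genes did.

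The null libraries differed more from each other than the WT libraries did. The SD was larger among the null than among the WT libraries for 9 of the 10 genes, and for 68.1% of all genes tested. It was 13.5 against 1.76 for Csf1r, 4.81 against 1.16 for Adgre1, and 2.11 against 2.16 for Mrc1. The highest of the 6 values was in null 2 for C1qa, C1qb, C1qc and Cd163, in null 3 for Adgre1, Csf1r and Cd68, and in null 1 for Cd14 and Aif1, while that of Mrc1 was in WT 3. The ratio of the summed C1q chains to the 7 summed macrophage genes took values of 1.47, 1.64 and 1.44 (WT) and 1.69, 1.68 and 1.17 (null), so that null 3 had the least C1q relative to the other macrophage genes.

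Markers of other cells also differed between the null libraries, some in the order of Csf1r and Cd68 and some in other orders. The 12 neutrophil genes, led by S100a8 and S100a9, summed to between 80182 and 116895 in WT libraries and to 76268, 122241 and 201057 in null libraries 1 to 3. This is the order of Csf1r, Cd68 and Adgre1, with null 3 highest. The 12 monocyte genes, among them Ly6c2 and Chil3, showed the same order, at 3447 to 4184 in WT and 3649, 4513 and 6684 in null libraries. Without their most abundant genes, S100a9 and Chil3, both lists kept this order. The 11 genes of osteoclasts, which also express Csf1r and Cd68, summed to between 570 and 639 in WT and to 511, 623 and 974 in null libraries. This order was set by Mmp9, which neutrophils also make, and without Mmp9 the sums were 205 to 338 in WT and 282, 256 and 348 in null libraries. Skeletal muscle genes differed from these, with 9 of 10 highest in null 1, the library with the highest Cd14 and Aif1, and sums of 41.2 to 56.4 in WT and 169, 66.4 and 74.2 in null libraries. The 14 cartilage genes summed to between 268 and 291 in WT and to 699, 478 and 324 in null libraries, an order set by Prg4, the lubricin of the joint surface. Without Prg4 the sums were 97.1 to 107 in WT and 152, 184 and 108 in null libraries. Of these 14 genes 9, Col2a1 among them, were highest in null 2, the library in which all 3 C1q chains were highest, and 4 were highest in null 1. The lists that follow, given for null libraries 1 to 3, were each lowest in null 3. Erythroid genes summed to 197435, 194224 and 112639, and dendritic cell genes to 116, 94.9 and 78.1. Genes of fibroblasts and synovium summed to 1262, 737 and 649, the order of Prg4 (547, 295 and 216), and B cell genes to 312, 358 and 164. An order of 3 libraries separates few patterns and was not tested. No gene of these lists was at 0 in all 6 libraries. The part of these cells in the differences of the 10 genes was not tested.

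**Figure D4:**
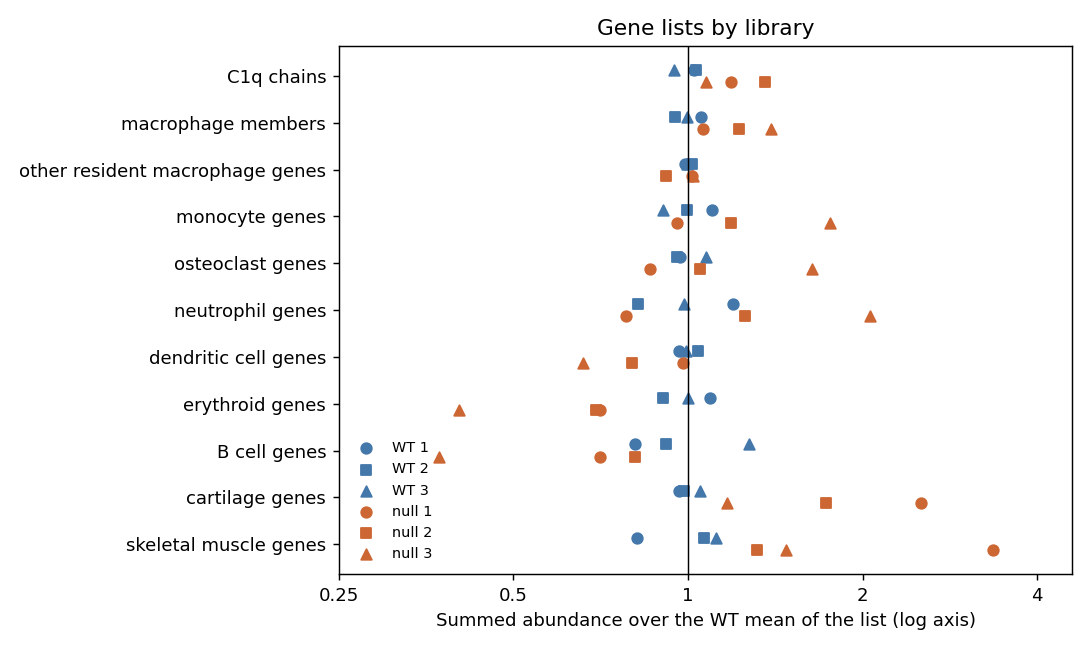
Summed abundance of each gene list in each library divided by the WT mean of that list (x axis, log scale), with WT libraries in blue and null libraries in orange. The C1q chains reach at most 1.36 and the 7 macrophage genes at most 1.39 times the WT mean, whereas neutrophil genes in null 3 reach 2.06 and skeletal muscle genes in null 1 reach 3.35.

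Of the lists for these other cells, none had a gene past adjustment by limma, and each median below is a log2 difference to be read beside the 0.02 of all genes. It was 0.33 over 12 neutrophil genes (12 higher in null), 0.29 over 12 monocyte genes (11 higher) and 0.18 over 8 tested osteoclast genes (7 higher). It was -0.56 over 9 erythroid genes and -0.69 over 10 B cell genes, with every member lower in null and an unadjusted p under 0.05 for 1 and 3 of them (2.32% of all genes were lower at that p), and -0.26 over 8 dendritic cell genes, of which 7 were lower. Over 11 cartilage genes it was 0.62 and over 7 muscle genes 1.28, with all of them higher and an unadjusted p under 0.05 for 3 and 6 of them (3.25% of all genes were higher at that p), and over 10 genes of fibroblasts and synovium it was 0.19, with 9 higher. Of all genes tested, 53.9% were higher in null.

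The partners of C1q in the classical pathway were next examined. Of 15 listed genes, 7 were abundant enough to be tested, 5 were higher and 2 lower in null, 1 had an unadjusted p under 0.05 and 0 passed adjustment by limma (median log2 difference 0.28). For comparison, 53.9% of all genes were higher in null and 3.25% were higher at that p. The groups were separated with null higher for 3 of the 7, compared with 6.25% of all genes. C8b and C9, which form part of the membrane attack complex, were listed at 0 in all libraries. C3, the protein on which all complement pathways converge, gave values of 87.0, 74.9 and 77.4 (WT) and 93.0, 117 and 168 (null), with no overlap (log2 difference 0.62, SE 0.21, limma adjusted p = 0.812). Null 3 was highest, as for the neutrophil genes. Serping1, the inhibitor of C1r and C1s, had abundances of 34.1, 33.0 and 35.6 for WT and 46.7, 41.9 and 36.9 for null, again without overlap (log2 difference 0.28, SE 0.12, limma adjusted p = 0.812). C8g, a subunit of the membrane attack complex, lay lower in null, at 1.53, 1.10 and 1.498 compared with 2.16, 2.32 and 1.73 in WT (log2 difference -0.45, SE 0.20, limma adjusted p = 0.812).

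The remaining complement lists gave 0 genes past adjustment by limma. Their counts are read beside all genes, of which 53.9% were higher in null. An unadjusted p under 0.05 by limma was reached by 3.25% of all genes with null higher and 2.32% with null lower. In the lectin and alternative pathways 6 of 6 tested genes were higher (median 0.30, 1 with an unadjusted p under 0.05), and properdin (Cfp), which stabilises the alternative convertase, measured 73.8, 73.7 and 73.8 in the WT libraries, against 67.2, 85.1 and 108 in the null libraries. Of 8 complement regulators 5 were higher (median 0.08), with an unadjusted p under 0.05 for Vsig4, a macrophage receptor for C3 fragments that was higher, and for Cd59a, an inhibitor of the membrane attack complex that was lower. Of 12 receptors 9 were higher (median 0.39, 1 with an unadjusted p under 0.05). The last was Calr, calreticulin, which binds the collagen-like stalks of C1q and also serves as a chaperone of the endoplasmic reticulum, with values of 201, 196 and 194 (WT) and 254, 301 and 242 (null). Its order among the null libraries was that of the C1q chains, with null 2 highest. Of the 12 receptors, 3 were highest in null 2 and 6 in null 3, where the neutrophil genes were also highest.

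The growth factors and transcription factors of macrophages were examined in the same way. Csf1, the growth factor that Csf1r binds, gave values of 8.27, 10.98 and 11.6 (WT) and 13.7, 11.3 and 13.96 (null), which overlapped, and 10 of 10 tested genes of its list were higher (median 0.31, 0 with an unadjusted p under 0.05 by limma). Of 10 transcription factors 8 were higher (median 0.24, 0 with an unadjusted p under 0.05 by limma). Spi1, which encodes the ETS factor PU.1, had abundances of 139, 116 and 114 for WT and 90.8, 164 and 234 for null. The Spi1 order follows Csf1r and the neutrophil genes. Toll-like receptor partners of Cd14 were higher for 9 of 13 genes (median 0.25, 1 with an unadjusted p under 0.05), and lysosome and phagocytosis genes for 16 of 17 (median 0.21, 2 with an unadjusted p under 0.05). Null 3, where the neutrophil genes were highest, held the highest value for 9 of these 13 and 14 of these 17 genes. Beside the counts of this paragraph, 53.9% of all genes were higher in null and 3.25% were higher at that p. Genes of the macrophages that surround red cell precursors and recycle iron were higher for 5 of 8 (median 0.06, 1 with an unadjusted p under 0.05), and Hmox1, the haem oxygenase of this group, gave values of 86.4, 112 and 114 (WT) and 82.0, 108 and 102 (null).

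The genes most like C1q across the 6 libraries were sought among 8909 genes outside the lists with a mean abundance of at least 5, as the root mean square difference between log2 levels after the mean of each gene was subtracted. The 5 nearest to the summed C1q chains were Chchd1 (0.035), Mtr (0.047), Cd2bp2 (0.063), Mthfd2 (0.066) and Dnmt1 (0.068). For comparison, the value was 0.039 for C1qa itself, 0.075 for C1qb and 0.085 for C1qc, whereas it was between 0.21 (Mrc1) and 0.40 (Cd14) for the 7 macrophage genes and 0.17 for a gene with no variation. The median of all genes compared was 0.26, within the range of the macrophage genes. Each chain is part of the sum to which it was compared. The chains lay closer to their sum than any of the 7 macrophage genes did, as a description over 6 libraries with no test.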

How the data were processed

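Knee cartilage RNA of 3 WT and 3 miR-455 null libraries was analysed. Per the labels, the submitters' processing notes name FastQC, Trim Galore, kallisto and sleuth with mouse build mm10, and no source used here gives their versions. The deposited signal is a non-negative abundance per gene that the authors called normalised counts. It was not whole, and the 10th percentile of positive values was 0.146 to 0.198 for single transcripts of 300 to 599 bases and 0.0227 to 0.0330 for those of 3000 to 5999 bases, as in length-normalised values. Read numbers are unknown, so no counting interval was calculated. Deposited alignment rates were not used. Symbols (35866 identifiers) and 3′UTRs came from GENCODE M21, and promoters and microRNAs from RefSeq.

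Genes with an abundance of at least 1 in at least 3 libraries were fitted with limma (3.58.1, R 4.3.3; trended prior, genotype as single term) on log2(abundance + 0.5), with Benjamini-Hochberg adjustment over 12804 genes. Fold changes on this scale understate those of low genes. On simulated data with 12804 genes, 41% of genes changed 2-fold and 85% of those changed 4-fold were recovered. No libraries were identical. The 10 genes and the 19 other lists were chosen with earlier results of these data known. Named genes were the 10 genes, for each list the 2 of smallest p and 2 of highest mean (not all are printed), and the 5 nearest to the C1q sum. Genes named outside this rule are marked or are named as background. Some genes past adjustment are not reported here. Alternatives were other pseudocounts, filters, scalings and priors, a block for replicate number, and each library left out in turn. List sums without the most abundant gene were added after the data were seen. Same-numbered libraries did not deviate together. Figures were drawn with matplotlib 3.10.9.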

Additional observations from a re-analysis of the deposited data

How the results depend on the processing

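Of 166 values of the 10 genes under 17 alternatives, 160 kept their direction and their side of the threshold, and 6 changed sign, all of them of Mrc1 (-0.013 with median ratio scaling, and -0.12 to 0.12 when a library was left out) or Aif1 (-0.074 to 0.12 when a library was left out). None of the 10 passed adjustment under any alternative (smallest limma adjusted p = 0.165, for Adgre1 without null 1). C1qc had an unadjusted p under 0.05 in all 18 fits, with a log2 difference of 0.31 to 0.42 when a library was left out. The number of the 10 at that p was 3 with each library rescaled to the same total (C1qc, Adgre1 and Cd14). It was 2 with the replicate block (C1qc and Cd14). Leaving out 1 library gave 1 to 4 (2 without WT 1 or null 3 and 4 without null 1). Of all genes, 7.11% reached that p in either direction with the same total, 4.70% with the block and 5.57% in the fit reported. This share was 3.19% without WT 1, 5.11% without null 3 and 18.8% without null 1. The same-total scaling also moved the median of all genes to 0.13, and the 10 genes lay 0.30 above that median as in the fit reported. The number of genes called was 4, and it became 2 without a filter, 1 at a minimum of 5, 1 at a minimum of 20, 1 with the replicate block and 0 to 8 when a library was left out (2 without WT 1 or WT 2, 8 without WT 3 or null 1, and 0 without null 2 or null 3). At unadjusted p the 713 genes became 1116 without a filter, 451 at a minimum of 5 and 185 at a minimum of 20, where fewer genes were tested, and 404 to 2369 when a library was left out (404 without WT 1 and 2369 without null 1); the cause was not tested. The classical pathway count of genes higher in null, 1 of 7 tested, became 3 of 13 without a filter and 2 of 2 at a minimum of 20. In either direction 4.82% and 4.32% of all genes reached that p in those fits, and 577 of 23176 and 105 of 4278 did with null higher. With 7 tested, the count was 3 with the same total, 3 without null 3 and 0 without WT 2 or WT 3. Among all genes, 812 of 12810 were higher at that p with the same total, and 377 of 12635 without null 3. These classical pathway fits were added after the data were seen. The ratio of the C1q sums was 1.13 to 1.27, and that of the macrophage sums 1.144 to 1.31, when a library was left out. Deviations of same-numbered libraries correlated at -0.15, 0.04 and -0.03, no library correlated best with its own number, and the numbers were not taken as pairs. Unknown read depth limits the genes of low abundance, and with 3 libraries a difference as small as those of the C1q chains was below the 2-fold change simulated.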

Other observations

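Other genes known from resident macrophages, some of which monocytes also carry (Cx3cr1, Ms4a6c and Fcgr1 among them), were listed apart from the 10 genes. Of 27 listed genes 23 were tested, 17 were higher and 6 lower in null (median log2 difference 0.19), 6 had an unadjusted p under 0.05 with a higher level in null, where 3.25% of all genes did, and 0 passed adjustment by limma. Folr2, a folate receptor of resident macrophages, had abundances of 4.48, 4.66 and 3.45 for WT and 6.73, 6.06 and 7.01 for null (log2 difference 0.60, SE 0.15, limma adjusted p = 0.812). Fcgr1, the high-affinity IgG receptor, measured 5.19, 4.53 and 5.43 in the WT libraries, against 6.27, 8.71 and 9.61 in the null libraries (log2 difference 0.63, SE 0.18, limma adjusted p = 0.812), in the null order of the monocyte genes. The other 4, named after their values were seen, were Lyve1, Msr1, Cbr2 and Ms4a7. The 6 lower genes were Pf4 (log2 difference -0.46) and, also named after their values were seen, Clec10a (-0.39), Cx3cr1 (-0.32), Cd5l (-0.17), P2ry12 (-0.12) and Gas6 (-0.03). None of these lower genes had an unadjusted p under 0.05 by limma. Of all genes, 53.9% were higher in null. The summed abundance of the list, led by Apoe and Pf4, had a ratio of means of 0.98. Unlike Csf1r and Cd68, Folr2 lay above the WT libraries in each null library. The most abundant genes of this list behaved otherwise. Apoe gave values of 589, 553 and 525 (WT) and 545, 614 and 622 (null), and Pf4, which megakaryocytes also make, had abundances of 352, 409.6 and 392 for WT and 400.5, 203 and 268 for null. The count of 6 genes higher at that p was 2 without WT 3 and 4 without any other single library, in fits added after the data were seen. Among all genes, those higher in null at that p were 416 of 12804 in the fit reported. They were 332 of 12626 without WT 3, 1420 of 12615 without null 1, and 223 to 377 without any other single library. Without null 1, 18.8% of all genes had an unadjusted p under 0.05 in either direction. With a minimum abundance of 20 the count was 0 of 5 tested. All of the 6 genes that were higher at that p lie below 20 in every library, so that 0 was fixed in advance.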
